A study of Mus musculus with 10 samples.

Results

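A group of 22 genes was transcribed in mouse ES cells, was lower in hemangioblasts and in the first hemogenic endothelium, and was transcribed again in blood progenitors. They were chosen by the mean expression scores that the authors deposited for 15686 genes. A gene was taken when its score was 10 or above in ES cells and in progenitors and below 10 in the first hemogenic endothelium, and when the smaller of the ES and progenitor scores was at least 2 times the larger of the hemangioblast and first hemogenic endothelium scores. Each score is on the scale of CPM, the counts on a gene scaled to a common library total. Blood cells arise in the embryo and in culture from hemogenic endothelium, a population of endothelial cells that loses its endothelial program and buds off round progenitors as RUNX1 rises. Blood cells carry signals from surface receptors through kinases and small GTPases to the actin skeleton, which they use to move and to release granules. Several of the 22 genes are better known from lymphocytes, granulocytes or macrophages than from ES cells.

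Nuclear RNA was sequenced in the mouse ES line HM-1, grown on gelatin with LIF and without further treatment (ES), and in 4 populations obtained from it by in vitro differentiation in serum. HB cells, or hemangioblasts, were selected with beads for the surface marker FLK1 from embryoid bodies of 3 d, and were then grown in blast culture and sorted into HE1 (KIT+ TIE2+ CD41−) and HE2 (KIT+ TIE2+ CD41+), the hemogenic endothelium before and after CD41 appears, and HP (KIT+ TIE2− CD41+), the hematopoietic progenitors. Each stage has 2 libraries, 10 together, with totals between 24920434 and 58782055 counts on genes, of which the 22 genes took between 0.00633% and 0.0969%. A count of 3, taken as the floor, lies between 0.051 and 0.1204 CPM and covers counting error only. The study calls its replicates biologically independent, and the labels do not say at which step the libraries of a stage were separated, so standard errors and p-values measure only the spread between these libraries.

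The transcripts of the surface markers used for sorting were compared with the labels. Kdr, which encodes FLK1, was at 957 and 1280 CPM in the HB libraries and at 2.43 and 2.70 in ES. Tek, which encodes TIE2, was at 564 and 294 CPM in HE1, at 285 and 159 in HE2 and at 61.5 and 64.2 in HP. Itga2b, which encodes CD41, was at 227 and 127 CPM in HE1, at 505 and 469 in HE2 and at 400 and 367 in HP, so that its transcript was already present in the population sorted as CD41−. Kit was at 146 and 73 CPM in HE1, at 230 and 410 in HE2 and at 363 and 251 in HP, and ES cells also had it, at 164 and 173 CPM. Levels in bulk populations cannot separate fewer expressing cells from less RNA per cell.

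All 22 genes are protein coding and all passed the filter on low counts. Their values in ES, HB, HE1 and HP chose them, so the following levels are a description with no test. In each of the 22 genes the 4 ES and HP libraries lay above the 4 HB and HE1 libraries, an order found in 5.35% of all 22596 tested genes, and nothing is read from this share because the choice asks for it. The summed level of the genes was 993 and 1010 CPM in ES, 79 and 64.3 for HB, 95.5 and 90.3 for HE1, 306 and 410 for HE2, then 617 and 532 in the HP libraries. Spp1 alone made up a large part of the ES level, and without it the sum was 579 and 587 CPM in ES and 600 and 494 in HP. The median gene was at 18 and 18.9 CPM in ES, 2.84 and 2.46 for HB, 4.1 and 3.95 for HE1, 12.7 and 14.1 for HE2, then 21.9 and 19.7 in the HP libraries. The low point differed between genes, as 4 of them were at or under 2 CPM in every HB and HE1 library and 12 were above 5 CPM in at least 1 of these libraries.

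**Figure D1:**
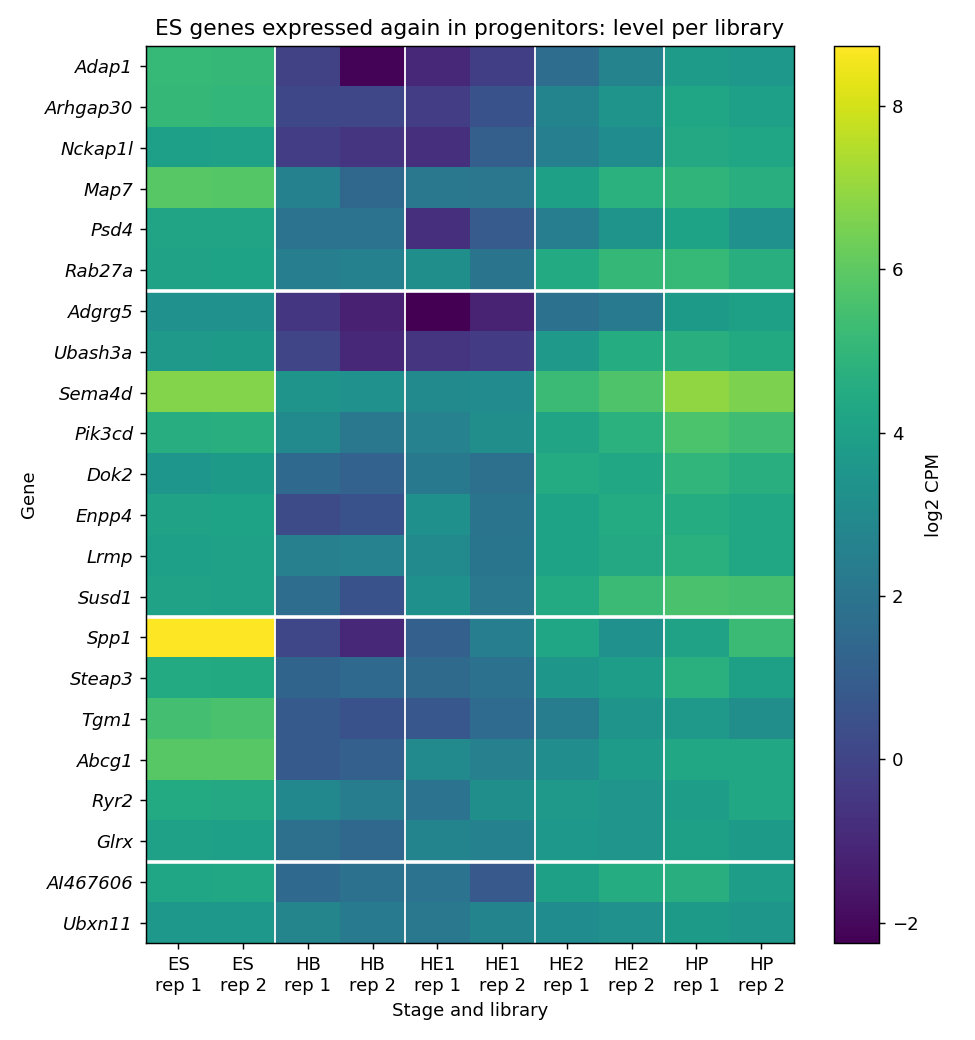
Level of each of the 22 genes (rows) in each of the 10 libraries (columns), as log2 CPM in colour, with the genes grouped by role between white lines and ordered within a group by the depth of the dip. The HB and HE1 columns are the darkest, and the ES pair is nearly identical. The HE2 columns lie between HE1 and HP at the median over the genes. In single genes HE2 and HP can overlap, as both HE2 libraries are below both HP libraries in 13 of the 22.

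Of the 6 genes that act on the cytoskeleton, small GTPases or vesicles, 3 had a ratio of 13.6 or above. Adap1, which encodes an ARF GTPase-activating protein that binds phosphoinositides, was at 35.0 and 33.2 CPM in ES, 0.926 and 0.225 for HB, 0.505 and 0.859 for HE1, 3.23 and 6.25 for HE2, then 14.1 and 12.1 in the HP libraries. Its smaller score of ES and HP was 18.6 times the larger of HB and HE1, the largest ratio among the 22. Arhgap30, which encodes a GTPase-activating protein, was at 33.1 and 32.4 CPM in ES, 1.09 and 1.07 for HB, 0.841 and 1.45 for HE1, 6.58 and 10.8 for HE2, then 18.5 and 15.4 in the HP libraries, a ratio of 14.5. Nckap1l encodes HEM1, the blood-cell subunit of the WAVE complex that drives branched actin growth. It was at 15.6 and 16.6 CPM in ES, 0.827 and 0.676 for HB, 0.589 and 2.08 for HE1, 5.70 and 8.54 for HE2, then 20.8 and 19.3 in the HP libraries. In these 3 genes each ES and HP library was far above the HB and HE1 libraries, and the HE2 libraries lay between HE1 and HP without overlap.

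The other genes of this role had shallower dips. Map7, whose product binds microtubules and recruits kinesin, had scores of 4.46 in HB and 4.92 in HE1 and a ratio of 6.04. Psd4, which encodes an exchange factor for ARF6, was higher in HB, at 3.87 and 3.83 CPM, than in HE1, at 0.589 and 1.88 CPM. Rab27a, which encodes a small GTPase of granule release, kept a level of 5.42 and 5.97 CPM in HB and of 9.30 and 3.93 CPM in HE1. Of these 3, the last came nearest to the level limit in 1 of its HE1 libraries.

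A second set of genes acts at the cell surface or close to receptors. Adgrg5 encodes an adhesion G protein-coupled receptor. It was at 9.92 and 9.95 CPM in ES, 0.694 and 0.423 for HB, 0.210 and 0.429 for HE1, 3.69 and 4.79 for HE2, then 13.2 and 15.8 in the HP libraries. The authors' scores are scaled over the genes of their matrix only and were 1.09 times the CPM used here at the median over these genes and stages, which is why a gene just under 10 CPM could be chosen. Ubash3a, which encodes a suppressor of T-cell receptor signalling, was at 12.7 and 13.5 CPM in ES, 1.02 and 0.507 for HB, 0.673 and 0.793 for HE1, 12.8 and 23.2 for HE2, then 25.2 and 21.3 in the HP libraries. Its ratio was 16.7, and its HE2 libraries overlapped those of ES and HP. Sema4d encodes the semaphorin CD100, a ligand of plexin-B1. It was at 103 and 105 CPM in ES, 10.9 and 9.77 for HB, 7.74 and 8.19 for HE1, 38.2 and 52.4 for HE2, then 119 and 95.5 in the HP libraries, so that the ES libraries lay within the range of the HP libraries.

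The remaining surface and signalling genes had ratios between 2.41 and 3.11. Pik3cd, which encodes the p110δ catalytic subunit of PI3 kinase in leukocytes, was at 23.8 and 25.1 CPM in ES, 7.80 and 4.48 for HB, 6.18 and 9.05 for HE1, 17.9 and 27.1 for HE2, then 48.8 and 41.1 in the HP libraries. Dok2, which encodes an adaptor that restrains tyrosine kinase signalling, was at 11.6 and 13.3 CPM in ES and at 31.4 and 25.8 in HP. Susd1, which encodes a membrane protein with sushi domains, was at 16.7 and 16.3 CPM in ES and at 48.1 and 44.7 in HP. Its HE1 libraries, at 9.63 and 4.39 CPM, differed by more than the HP libraries did. Enpp4, an ectonucleotidase, was lowest in HB with 1.19 and 1.41 CPM. Lrmp, which encodes a membrane protein of the endoplasmic reticulum in lymphoid cells, was at 4.06 CPM or above in every library.

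Other genes serve transport, redox balance or the extracellular matrix. Spp1 encodes osteopontin, a secreted ligand of integrins and CD44. It was at 414 and 426 CPM in ES, 1.06 and 0.507 for HB, 2.19 and 5.48 for HE1, 19.0 and 9.81 for HE2, then 16.9 and 37.2 in the HP libraries. The ES libraries were the highest by a wide margin, and the HE2 and HP libraries overlapped. Tgm1, which encodes a transglutaminase known from the cornified layer of skin, was at 43.7 and 47.5 CPM in ES, at 5.24 and 10.9 in HE2 and at 12.5 and 9.09 in HP. Abcg1, which encodes an exporter of cholesterol, was at 58.1 and 59.0 CPM in ES, 1.82 and 2.14 for HB, 7.78 and 5.78 for HE1, 8.87 and 13.6 for HE2, then 20.4 and 20 in the HP libraries. Its level was thus lowest in HB. Steap3, which encodes an endosomal ferrireductase of iron uptake, returned to about the ES level, with 21.8 and 21.5 CPM in ES and 26.2 and 15.8 in HP. Ryr2, a calcium release channel, and Glrx, the thiol enzyme glutaredoxin, had shallow dips with ratios of 2.78 and 2.27.

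The members nearest to the limit of 2 were Ubxn11 with a ratio of 2.08, Glrx with 2.27 and Susd1 with 2.41. The 3 genes just outside it were Slc16a10 with 1.95, Slc35g1 with 1.92 and Xk with 1.89. Their shapes differed from each other. Slc16a10, a transporter of aromatic amino acids, was at 13.0 and 12.2 CPM in ES and at 85.4 and 69.3 in HP, whereas Slc35g1 was at 52.8 and 55.9 CPM in ES and at 15.5 and 15.8 in HP. Divided by exon length, Spp1 had the highest ES level among the 22 with 255 CPM per kb, and it was at 16.4 CPM per kb in HP. Sema4d was at 13.5 CPM per kb in ES and 13.9 in HP, and AI467606 at 9.80 and 10.5. Tgm1 was at 14.4 and 3.42 CPM per kb, and Adap1 at 10.4 and 3.98. Spp1 shares exon sequence with Gm42793 on the same strand, from 104435121 to 104436372 of chromosome 5, and a read pair on both was counted for each. Gm42793 was at 53.2 CPM in ES and 3.64 in HP on average. Rab27a overlaps Gm27186, which did not pass 0.631 CPM in any library, and no other gene of the 22 shares exon sequence on its strand.

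The libraries of a stage differed from each other to an unequal extent. The larger value was 1.04 times the smaller in ES at the median over the 22 genes, 1.27 times in HB, 1.78 times in HE1, 1.5 times in HE2 and 1.21 times in HP. Over all tested genes with a mean of 1 CPM or above it was 1.05, 1.13, 1.26, 1.21 and 1.20 times in the same order. In HE2, replicate 2 was above replicate 1 for 18 of the 22 genes, against 45.4% of all tested genes, and in HP replicate 1 was the higher for 19, against 52.2% of all tested genes. Other groups of genes were ordered in the same way or in the opposite one. HE2 replicate 2 was the higher for 20 of 25 blood transcription genes, 22 of 23 genes of DNA replication and 18 of 18 of mitosis, and HP replicate 1 for 22, 20 and 16 of them. Runx1 was at 295 and 519 CPM in HE2 and at 523 and 412 in HP, while Lmo2 was at 87.6 and 83.0 in HE2 and at 86.8 and 96.5 in HP, the other way round. Of 17 erythroid genes, HE2 replicate 2 was the higher for 5 and HP replicate 1 for 15. HE2 replicate 2 was the higher for 0 of 21 endothelial, 2 of 15 mesoderm, 2 of 13 fibroblast and 10 of 30 pluripotency genes. In the same lists HP replicate 1 was the higher for 6, 8, 10 and 24 genes. The part of these genes in the levels of the 22 was not tested.

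The rule treats ES and HP alike, so it does not set which of them is the higher, but it used both levels and leaves out genes that are low in either. The comparison of HP with ES is therefore a description. A gene was counted as higher or lower when edgeR's quasi-likelihood fit gave an adjusted p under 0.05 together with a 2-fold difference. In HP, 2 of the 22 were counted as higher and 5 as lower than in ES, where the background over all tested genes was 16.7% and 21.9%, and nothing is read from these shares. The median log2 fold change was 0.04 for the 22 genes and −0.00711 for all tested genes. The genes counted as higher were Susd1 with 1.49 on the log2 scale (standard error 0.399) and Dok2 with 1.20 (standard error 0.218). Both HP libraries of these genes were above both ES libraries.

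Of the 5 counted as lower, Spp1 had the largest log2 fold change, −3.96 (standard error 0.485). It was −2.07 for Tgm1 (standard error 0.356) and −1.54 for Abcg1 (standard error 0.226). For Adap1 it was −1.38 (standard error 0.419) and for Map7 −1.06 (standard error 0.315). The last 2 depended on single libraries. Adap1 was not counted when any single ES or HP library was left out, and its log2 fold change ran from −1.50 to −1.27 over the settings. Map7 was not counted without ES replicate 1 or HP replicate 2, nor with total counts in place of TMM. Among the 15 other genes, Pik3cd had a log2 fold change of 0.88 (standard error 0.286), Ubash3a of 0.83 (standard error 0.315) and Arhgap30 of −0.95 (standard error 0.273), all under 2-fold. Arhgap30 was counted as lower without HP replicate 1, with −1.09. Sema4d was at 0.04, Ubxn11 at 0.04, Steap3 at −0.04 and AI467606 at 0.11, and the sign of each of these 4 turned with the libraries used.

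**Figure D2:**
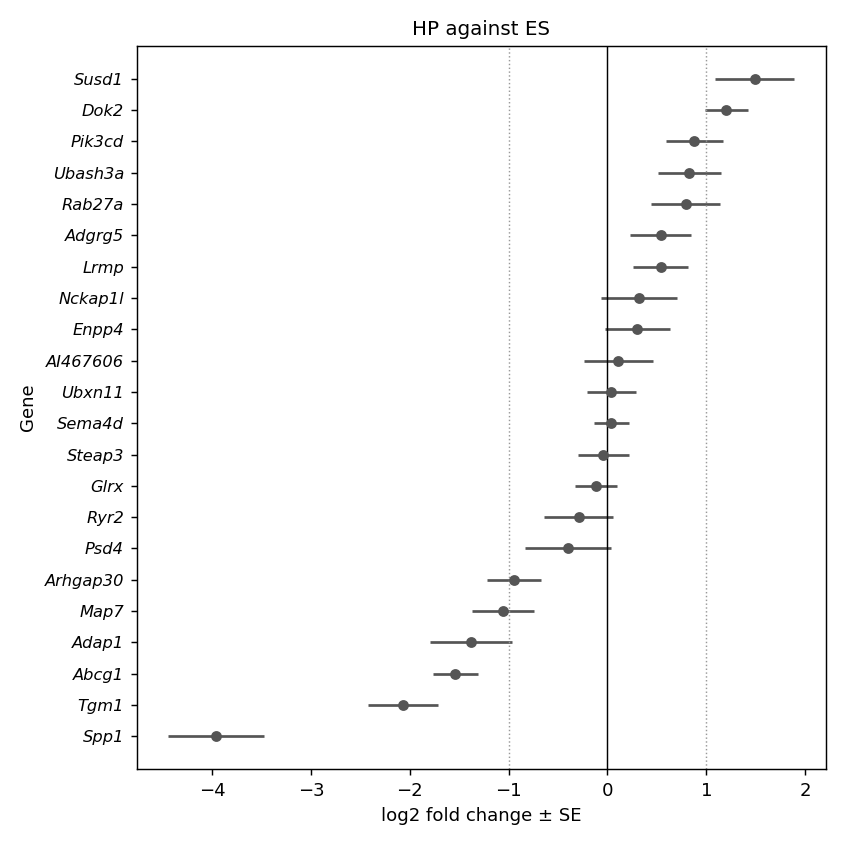
Log2 fold change of HP against ES (horizontal axis) for each of the 22 genes (vertical axis), as the estimate of the model over 10 libraries with its standard error as bars. The estimates run from −3.96 for Spp1 to 1.49 for Susd1, and dotted lines mark −1 and 1.

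HE2 is the stage that the rule did not use. The HE1 side of its comparison was selected on being low and the HP side on being high, so the following values are descriptions, and nothing is read from them beside all tested genes. In every one of the 22 genes both HE2 libraries were above both HE1 libraries, an order found in 28.8% of all tested genes. By the limits used for HP and ES, 18 of the 22 were counted as higher in HE2 than in HE1 and 0 as lower, where the background was 3.26% and 5.39%. Among 227 other genes of the matrix that were chosen for the same rise from HE1 to HP but miss the rule in ES, the share counted as higher was 83.7%, next to 81.8% of the 22. The median log2 fold change was 2.09 for the 22 genes, 2.23 for the 227 and −0.075 for all tested genes. Each of the 18 had a log2 fold change of 1.06 or above in every setting, also where it was not counted, with the lowest for Enpp4. Without HE2 replicate 2 the count of 18 was 10, that over all tested genes was 324 in place of 737, and the 10 did not hold Adap1, Nckap1l, Tgm1, Psd4, Pik3cd, Rab27a, Enpp4 and Susd1.

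The 18 held all 6 genes of the cytoskeleton, GTPases and vesicles, and all 8 of signalling and the surface. They also held 3 of the 6 of transport, redox and the matrix, and AI467606. The largest log2 fold change of HE2 against HE1 was that of Ubash3a with 4.60 (standard error 0.395). It was followed by Adgrg5 with 3.68 (standard error 0.40), Arhgap30 with 2.90 (standard error 0.321), AI467606 with 2.82 and Adap1 with 2.77. Sema4d had 2.51 with the smallest standard error of the 22, 0.191. The 5 smallest values were those of Abcg1 with 0.73, Ubxn11 with 0.77, Ryr2 with 0.85, Glrx with 0.91 and Pik3cd with 1.56. Ryr2 had 1.65 without HE1 replicate 2, in whose absence its HE1 level was lower. Spp1 had 1.89 (standard error 0.486) and was among the genes counted as higher in 11 of 17 settings.

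Between HE2 and HP, 0 of the 22 genes were counted as higher and 0 as lower, where the background was 0.0% in each direction. All 22 had a higher mean in HP, the side that was selected on being high. In 13 of them both HE2 libraries were below both HP libraries. No share of all tested genes is given for these orders, so nothing is read from these counts. The median log2 fold change was 0.59 for the 22 genes, 0.73 for the 227 and 0.01 over all tested genes. The largest values were those of Adgrg5 with 1.77 (standard error 0.319), Nckap1l with 1.49, Adap1 with 1.47 and Sema4d with 1.24 (standard error 0.178). The count of higher genes was 4 with DESeq2, 2 with limma-voom and 4 without the filter on low counts, where all genes gave 107, 35 and 145. It was also 3 without HE1 replicate 1, 3 without HE1 replicate 2 and 4 without HE2 replicate 2, where all genes gave 24, 23 and 50.

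Taken on the log2 scale of the means, HE2 had covered 74.9% of the way from HE1 to HP at the median over the 22 genes, and between 65.9% and 81.0% when a library was left out. The shares of single genes rest on single libraries. The lowest, 46.4% in Abcg1, was 25.1% without HE2 replicate 2 and 64.5% without HE2 replicate 1. The highest, 98.1% in AI467606, was 87.5% without HP replicate 2 and 117% without HP replicate 1. The score in HE2 was 10 or above for 15 of the 22 genes, or 68.2%, and below it for Adap1, Adgrg5, Arhgap30, Nckap1l, Tgm1, Psd4 and Ubxn11.

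**Figure D3:**
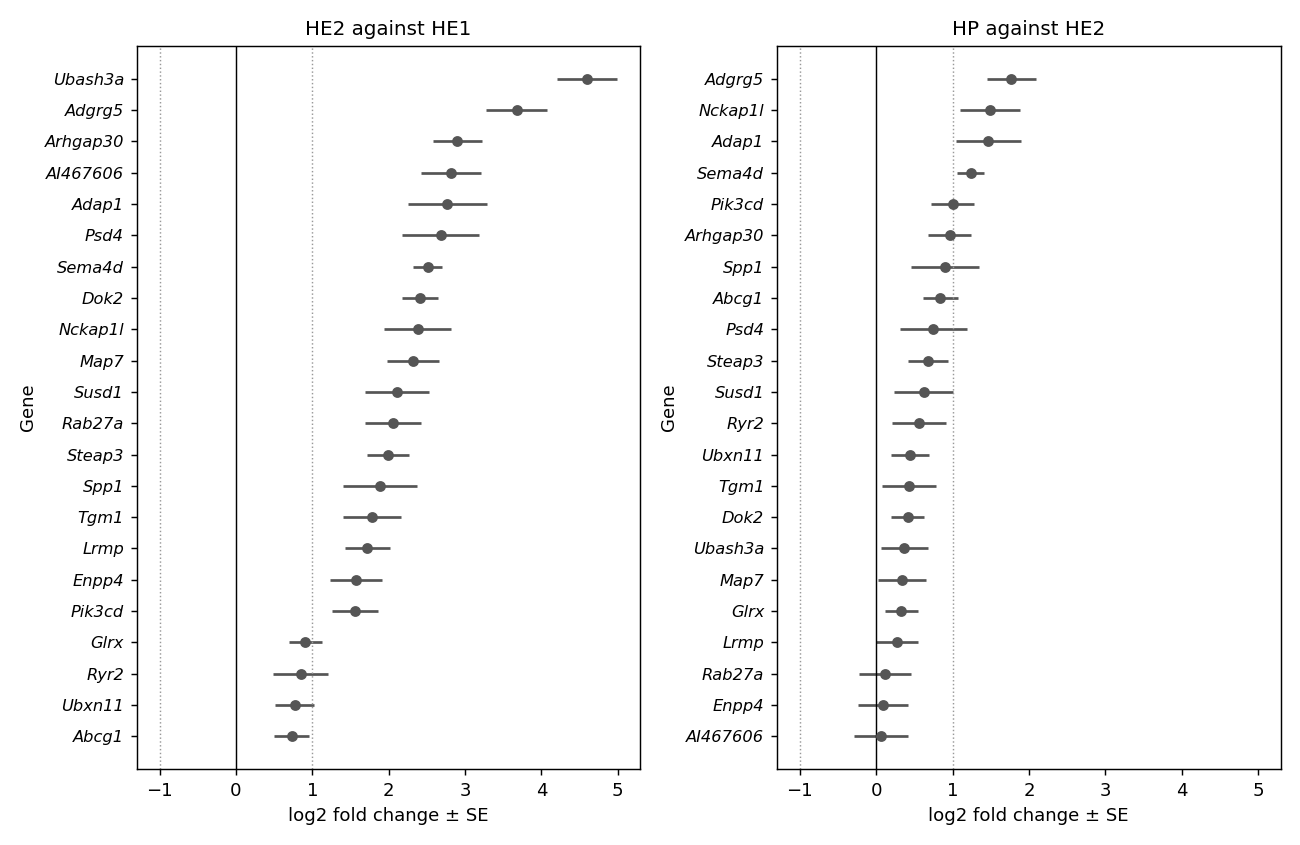
Log2 fold change of HE2 against HE1 (left) and of HP against HE2 (right) for each of the 22 genes, as the estimate of the model over 10 libraries with its standard error as bars. All estimates lie above 0, on the left between 0.73 for Abcg1 and 4.60 for Ubash3a, and on the right between 0.06 for AI467606 and 1.77 for Adgrg5. Dotted lines mark −1 and 1.

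The 227 other genes that rise from HE1 to HP had a median score in ES of 0.901, and 119 of them were under 1. They miss the rule only through their ES score, so nothing is read from its low level. In HE2, 143 of the 227 or 63.0% had a score of 10 or above. The difference between these genes and the 22 was not tested.

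Lists of marker genes were examined to see whether other cell types or cell division moved with the 22 genes. Of 30 pluripotency genes, all 30 were lower in HP by the same limits, and 0 higher. Their summed level was 8240 and 8130 CPM in ES and 660 and 623 in HP, most of which was Trim71 with 365 CPM. The defining gene Pou5f1 was at 549 and 520 CPM in ES and at 3.31 and 0.413 in HP, and Sox2 and Nanog were at 0.372 and 0.444 CPM in HP on average. In HE1, Pou5f1 was at 2.82 and 26.3 CPM, Sox2 at 0.715 and 9.28 and Nanog at 0.715 and 11.6. The libraries of this stage thus differed in these genes. Klf2, with 135 and 61.5 CPM in HE1, and the sum over the 30 genes, with 1220 and 1070, went the other way. Of 20 genes listed as general markers of blood cells, 19 were higher in HP and 0 lower. Their summed level in ES was 242 and 247 CPM, in which Laptm5 was the most abundant with 109 CPM, while Ptprc was at 0.426 and 0.631 CPM and Cd84 at 0. The blood regulators Runx1 and Spi1 were at 2.77 and 2.81 CPM and at 0.958 and 0.516 CPM in ES. Endothelial genes ran the other way from HE1 on. The summed level of 21 of them was 446 and 456 CPM in ES, 1890 and 2170 for HB, 7760 and 5170 for HE1, 5060 and 2790 for HE2, then 1420 and 1530 in the HP libraries. The most abundant were Cdh5 in HE1 with 1110 CPM on average and Kdr in HE2 and HP with 778 and 339. In HE2 the sum was lower in replicate 2, the library in which 18 of the 22 genes were higher. Of the defining genes Cdh5 was at 118 and 179 CPM in HP, and Sox17 at 1.85 and 7.88. Summed levels of cell division genes were lowest in HE1, although of single genes 1 of 23 of DNA replication and 2 of 18 of mitosis were counted as higher in HP than in HE1. The sum over 23 genes of DNA replication was 5310 and 5250 CPM in ES, 4430 and 4630 for HB, 3080 and 2510 for HE1, 3740 and 5180 for HE2, then 5060 and 4370 in the HP libraries. That over 18 genes of mitosis was 4770 and 4870 CPM in ES, 3070 and 2190 in HE1 and 4740 and 4270 in HP. Fibroblast and smooth muscle genes summed to 1080 and 1960 CPM for HE1, 1200 and 842 for HE2, then 1530 and 790 for HP. Of erythroid genes 17 of 17 were counted as higher in HP than in HE1, of megakaryocyte genes 13 of 16 and of myeloid genes 14 of 19. Counted as lower were 0, 1 and 1 of them, where the background was 5.35% higher and 11.2% lower. Epithelial genes summed to 3670 and 3790 CPM in ES, 275 and 792 in HE1 and 418 and 243 in HP. The part of cell division and of these cell types in the levels of the 22 genes was not tested.

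Of 27 tested genes of small GTPase and lymphoid signalling, a list that holds Arhgap30 and Pik3cd, 16 had a higher and 4 a lower level in HP than in ES by the same limits, and from HE1 to HE2 it was 13 and 1. Vav1, an exchange factor for RAC, was at 1.40 CPM in ES and 50.1 in HP on average, and Dock2 at 2.05 and 21.0. Lck, a kinase of the T-cell receptor, went the other way with 20.4 CPM in ES and 0.430 in HP. Pik3r5, a regulatory subunit of another PI3 kinase, was at 1.32 CPM in ES and 5.27 in HP. Of the 19 lists of marker and pathway genes, 15 held 0 genes with a mean of 10 CPM or above in ES and HP and below it in HE1. Together the lists hold 5 such genes among 350 tested, or 1.43%, and all tested genes hold 297, or 1.31%, so the share in the lists is that of the background. The other lists were those of small GTPases with its 2 members, of myeloid genes with Csf2ra, of amino acid and nucleotide metabolism with Psph, and of channels with Kcnk5. Csf2ra had means of 23.0 CPM for ES, 8.38 for HB, 7.04 for HE1 and 13.8 for HP, too shallow for the rule. Laptm5 had a like shape at a higher level, with means of 109 CPM for ES, 5.58 for HB, 16.5 for HE1 and 155 for HP, and missed the rule by its HE1 level. Csf2ra, Psph, Kcnk5 and Laptm5 were singled out after their values were seen.

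The genes lie on 13 chromosomes of GRCm38. Abcg1, from 31057675 to 31117988 of chromosome 17, and Ubash3a, from 31207873 to 31246892, are on the plus strand and 89.9 kb apart. The 5 genes annotated between them are Tff3, Tff2, Gm15318, Tff1 and Tmprss3. Tmprss3 had means of 0.915 CPM for ES, 0.0165 for HB, 0 for HE1, 0.519 for HE2 and 1.00 for HP, and the other 4 did not pass 0.0787 CPM on average in any stage. Arhgap30, from 171388954 to 171410298 of chromosome 1, begins 0.356 kb behind Nectin4 on the same strand, which was at 5.94 CPM in ES and 1.19 in HP. The study's regions of primed enhancers, open before the linked gene is expressed, name 9 of the 22 genes with 13 regions, all at the transition from HE to HP. That is 40.9% of the 22, next to 42.7% of the 227 other genes that rise from HE1 to HP and 0.873% of the matrix. That list was chosen on these libraries by a rise from HE1 to HP, so this is no independent support. The midpoints of 3 regions lie within the linked gene. They are in an intron of Rab27a 24.0 kb downstream of its start, in an intron of Ubash3a 16.2 kb downstream, and in an exon of Dok2 10.2 kb downstream. The region of Arhgap30 is 1.57 kb upstream of its start. Others are far away, such as those of Nckap1l 692 kb upstream, of Spp1 up to 954 kb upstream and of Ryr2 2170 kb downstream.

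Promoters were searched for short motifs, as a description of genes that the rule chose for a shared pattern. The RefSeq table (GRCm38.p6) holds 31 promoters of 18 of the 22 genes, each from 250 bases before to 50 after the start, and has no entry under the names Abcg1, Dok2, Lrmp and Nckap1l. Each motif was read on both strands. A RUNX motif, TGTGGT or TGCGGT, was present in 9 of the 31 promoters, or 29.0%, against 22.4% of 32851 promoters in the table. They belong to AI467606, Adgrg5, Arhgap30, Pik3cd, Rab27a, Sema4d, Spp1, Steap3 and Ubash3a. A CACC box, CCACCC, was in 54.8% against 31.5%, and an E-box, CACGTG, in 12.9% against 7.15%. A GATA motif, AGATAA or TGATAA, was in 12.9% against 18.6%, and an ETS motif, CCGGAAG, in 6.45% against 8.86%. The octamer ATGCAAAT or ATTTGCAT was in 1 promoter, of Spp1, or 3.23% against 1.74%. TATAAA was in 3.23% against 13.6%, and the NRF1 motif GCGCATGC in 0 against 2.71%. No motif contains another, but matches of different motifs may share bases at their ends. The median GC share of the promoters was 56.3% against 52.7%, with a median of 7 CG in both. The highest numbers were 55 CG in Map7, 51 in Adap1, 41 in Enpp4, 34 in a promoter of Psd4 and 26 in a promoter of Pik3cd. These are counts of letters with no test, and several promoters belong to the same gene.

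The 250 bases before the start are given for the 4 genes with a RUNX motif and the deepest dips, and for the promoter of Spp1 with the octamer. They run 5′ to 3′ on the strand of the gene, in lower case with each motif that was searched in capitals.
Adgrg5, chr8:94923444-94923693 (+ strand): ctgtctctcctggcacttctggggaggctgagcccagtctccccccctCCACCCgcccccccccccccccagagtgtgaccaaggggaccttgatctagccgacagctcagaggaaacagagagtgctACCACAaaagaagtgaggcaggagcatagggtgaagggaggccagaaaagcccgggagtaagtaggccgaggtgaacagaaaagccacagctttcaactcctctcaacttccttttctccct
Ubash3a, chr17:31207816-31208065 (+ strand): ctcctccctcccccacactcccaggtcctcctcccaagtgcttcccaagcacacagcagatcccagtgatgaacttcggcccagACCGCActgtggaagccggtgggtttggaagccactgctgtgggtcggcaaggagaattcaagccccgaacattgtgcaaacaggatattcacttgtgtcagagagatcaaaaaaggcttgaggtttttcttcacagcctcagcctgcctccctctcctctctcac
Arhgap30, chr1:171388710-171388959 (+ strand): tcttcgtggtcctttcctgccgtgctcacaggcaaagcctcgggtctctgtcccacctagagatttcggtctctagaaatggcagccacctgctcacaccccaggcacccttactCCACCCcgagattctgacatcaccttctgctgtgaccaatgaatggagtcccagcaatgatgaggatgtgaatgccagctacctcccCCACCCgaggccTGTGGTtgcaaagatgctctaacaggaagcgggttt
Sema4d, chr13:51748811-51749060 (- strand): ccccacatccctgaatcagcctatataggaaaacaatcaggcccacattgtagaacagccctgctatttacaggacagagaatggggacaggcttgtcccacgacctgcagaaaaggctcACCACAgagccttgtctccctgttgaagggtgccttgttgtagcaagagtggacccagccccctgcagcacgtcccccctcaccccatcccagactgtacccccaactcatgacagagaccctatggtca
Spp1, chr5:104435942-104436191 (+ strand): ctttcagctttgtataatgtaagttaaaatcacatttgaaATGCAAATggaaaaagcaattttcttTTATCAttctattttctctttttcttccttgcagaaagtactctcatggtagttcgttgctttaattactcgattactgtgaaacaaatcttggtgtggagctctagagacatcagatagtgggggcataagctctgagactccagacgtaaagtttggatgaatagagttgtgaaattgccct
In Adgrg5 the RUNX motif, read on the other strand as ACCACA, begins 122 bases before the start, and a CACC box 202 bases before it. In Ubash3a the motif is ACCGCA at 166 bases, and in Arhgap30 it is TGTGGT at 36 bases, behind CACC boxes at 135 and 48 bases. The Sema4d promoter printed here has ACCACA at 130 bases, and the other RefSeq promoters of this gene have no RUNX motif. It lies inside the Ensembl gene, which runs from 51685529 to 51793747 on the minus strand. The Ubash3a stretch printed here reaches past the beginning of its Ensembl gene at 31207873, and its RUNX motif lies after that point. The Spp1 promoter printed here has the octamer at 210 bases and the GATA motif TTATCA at 184 bases before the start. It lies inside the Ensembl gene, which begins at 104435118, and within the stretch given above for Gm42793. The other RefSeq promoter of Spp1, from 104434861 to 104435110, lies just before that beginning. It has RUNX, ETS and TATAAA motifs and no octamer.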

How the data were processed

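Nuclear RNA depleted of rRNA was sequenced with a stranded protocol. Per the submitters' processing notes and the file headers, Trimmomatic trimmed the reads, HISAT2 (v2.2.1) placed them on mm10, and featureCounts (v2.0.1) counted pairs over exons of Ensembl release 102, reverse-stranded, once for each gene overlapped. The deposited counts are not normalized. The authors also deposited a score per gene and stage, and rebuilding it from the counts as a geometric mean of voom CPM left a log2 difference of at most 4.1e-08. The rule was applied to these scores. The members and the gene lists were chosen with earlier results of these data known.

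Counts of all 55487 genes were filtered with filterByExpr of edgeR (v4.0.16, R v4.3.3), leaving 22596, and scaled with TMM. CPM are TMM-scaled. The 10 libraries entered a single quasi-likelihood fit on stage, and Benjamini-Hochberg adjustment ran over every tested gene. Standard errors were derived from the log2 fold change and its F value. Alternatives were limma-voom (v3.58.1), DESeq2 (v1.42.0), total counts, no filter, only the 4 libraries compared, a replicate block, a change of at least 4-fold, each library left out, and other limits of the rule.

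Named genes were the 10 with the largest ratio, the 5 largest and 5 smallest changes from HE1 to HE2, those called between HP and ES, the 5 highest per kb, those in a list, those next to the limit, and those linked to a primed enhancer. The remaining members, Psd4, Enpp4 and Lrmp, are named for completeness. The position of an enhancer is its midpoint relative to the Ensembl genes, and biotypes came from GENCODE vM21. Promoters came from RefSeq (GRCm38.p6). Tables and plots used matplotlib (v3.10.9), pandas (v2.3.3), numpy (v2.4.6) and Python (v3.11.15).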

Additional observations from a re-analysis of the deposited data

How the results depend on the processing

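The number of genes found by the rule was 7 with a limit of 20 for ES and HP, 13 with a ratio of 3 and 48 with a ratio of 1.5. It was 23 on linear CPM, 23 with a limit of 9, and 16 when the lowest ES or HP library was set against the highest HB or HE1 library. With each library left out it was between 22 and 28, of which between 18 and 22 were among the 22 genes. Without an HE2 library, which the rule does not use, it was 23 and 24, with Bcl3 and Siae gained as on linear CPM. The counts with a library left out therefore do not show the effect of that library alone. The number at 10 or above in HE2 lay between 14 and 19.

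At 4-fold, HP against ES gave 0 of the 22 genes higher and 2 lower, where all tested genes gave 2157 and 3573. With each library left out, between 3 and 5 were lower in HP than in ES, between 10 and 18 higher in HE2 than in HE1, and between 0 and 4 higher in HP than in HE2, where DESeq2 called 4, limma-voom 2 and the fit without the filter 4. A stage left with 1 library is assumed to vary like the others. With only the 4 libraries compared, Adap1, Nckap1l, Spp1, Tgm1, Psd4 and Enpp4 were not counted as higher in HE2 than in HE1. All tested genes gave 364 in that fit, in place of 737. The log2 fold change of these members was 1.06 or above in every setting.

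With each library left out, the log2 fold change of HP against ES ran from −0.12 to 0.2 for Sema4d, from −0.45 to 0.28 for Steap3, from −0.36 to 0.45 for AI467606 and from −0.06 to 0.12 for Ubxn11. For Steap3 it was 0.0 with only the 4 libraries and 0.03 with total counts. That of HP against HE2 ran from −0.41 to 0.4 for AI467606, from 0.0 to 1.05 for Tgm1, from −0.16 to 0.45 for Rab27a and from −0.08 to 0.29 for Enpp4. The sign turned without HP replicate 1 or HE2 replicate 1, and for Steap3 without HP replicate 2. The cause was not tested. Of the other values of single genes under the alternatives, 992 kept their direction and side of the threshold, 28 no longer passed and 23 passed newly.

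Over all tested genes, HE2 against HE1 gave 737 higher and 1217 lower. It gave 364 and 171 with only the 4 libraries, 954 and 2864 without the filter, 372 and 529 at 4-fold, and with each library left out between 324 and 1368 higher and between 98 and 2927 lower. HP against HE2 gave 107 and 194 with DESeq2, 35 and 27 with limma-voom, 145 and 389 without the filter, and up to 50 and 475 without HE2 replicate 2. HP against ES gave 3782 higher and 4958 lower, and 2157 and 3573 at 4-fold.

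The differences between replicates of 2 stages correlated between −0.316 and 0.213 across genes. Each stage gives only a single such difference, so these values cannot decide whether the replicate numbers pair the libraries. With a replicate block, HP against ES gave 2 of the 22 genes higher and 5 lower, and all tested genes gave 3560 and 4762. HE2 against HE1 then gave 18 of the 22 higher, and all tested genes gave 651 higher and 766 lower. HP against HE2 gave 0 of the 22 higher, and 0 of all tested genes in each direction.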
